A study of Homo sapiens with 12 samples.

Results

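The 10 genes described here are named for the surface of monocytes and macrophages, the blood and tissue phagocytes of the myeloid lineage. They were picked by symbol from the 60240 genes in the table. The rule uses no measured value, but the list was drawn up with earlier results of these data known. They are the pattern-recognition genes CD14 and FCN1, the Fc gamma receptors FCGR1A and FCGR2A, the scavenger receptors CD163, CD36 and CD68, the matrix proteoglycan gene VCAN, and the inhibitory receptors LILRB1 and LILRB2. Not all of their products stay at the surface: CD68 is held mainly in lysosomes, and FCN1 and VCAN encode secreted proteins.

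RNA was sequenced from HL-60, an established human promyelocytic leukaemia line whose genotype is given as wild type in every sample. Depending on the inducer, such cells take on features of granulocytes or of monocytes. Cells received either decitabine at 100 nM, with additions at 0, 24 and 48 h, or the vehicle DMSO, and RNA was taken at 6, 72 and 120 h, so that the cells of the 6 h groups had met only the first addition. Decitabine is a cytidine analogue that enters DNA and traps DNA methyltransferases, so that methylation is lost as cells divide. The labels list 12 samples in 6 groups of 2 wells of this line. The table gave values for 11 of them: DMSO at 72 h had 1 library and therefore no SD, and each other group had 2. The wells are not described as separate cultures, so the p-values reflect the spread between libraries, which may be technical.

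Monocytes use these proteins to sense and clear. CD14 hands bacterial lipopolysaccharide to the TLR4 and LY96 (MD-2) complex, and ficolin-1, the product of FCN1, binds sugars on microbes and starts the lectin pathway of complement. Fc gamma receptors bind the constant part of IgG: the product of FCGR1A is the high-affinity receptor CD64, which signals through the FCER1G chain, and the product of FCGR2A is CD32A, which carries its own activating motif. LILRB1 and LILRB2 bind MHC class I and recruit phosphatases that damp activation. CD14, FCN1 and VCAN are classical monocyte genes, whereas CD163, the receptor for haptoglobin with haemoglobin, is typical of mature macrophages.

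The members differed in the sequence just upstream of their RefSeq starts. Promoter windows of 250 bases were found for 10 of the 10 members, in 19 windows (RefSeq, GRCh38.p14), since CD36, LILRB1 and LILRB2 have several starts. The stretches of FCGR1A and FCGR2A are shown because FCGR2A was called higher under decitabine and FCGR1A was not, while their promoters share a run of 20 bases, marked in capitals. Those of FCN1 and LILRB2 are shown for their CpG content, with each CG in capitals, because CpG is the site of the methylation that decitabine removes. Each stretch of 150 bases ends where the exons of that gene begin in GENCODE 29.
FCGR1A, chr1:149782521-149782670, plus strand: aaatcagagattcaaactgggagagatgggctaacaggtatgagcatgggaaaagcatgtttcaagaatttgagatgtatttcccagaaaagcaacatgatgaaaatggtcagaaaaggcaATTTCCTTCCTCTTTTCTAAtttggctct
FCGR2A, chr1:161505280-161505429, plus strand: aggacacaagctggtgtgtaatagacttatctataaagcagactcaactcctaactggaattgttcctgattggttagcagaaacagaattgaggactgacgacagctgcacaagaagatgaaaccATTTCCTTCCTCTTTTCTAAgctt
FCN1, chr9:134917964-134918113, minus strand: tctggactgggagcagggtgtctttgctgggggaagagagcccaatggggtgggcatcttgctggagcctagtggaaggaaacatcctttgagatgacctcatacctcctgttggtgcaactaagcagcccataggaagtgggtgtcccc
LILRB2, chr19:54281185-54281334, minus strand: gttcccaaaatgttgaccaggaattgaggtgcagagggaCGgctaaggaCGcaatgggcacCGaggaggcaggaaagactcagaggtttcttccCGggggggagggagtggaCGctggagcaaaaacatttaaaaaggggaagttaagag

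The shared run ATTTCCTTCCTCTTTTCTAA lay from −52 to −33 of the FCGR1A start and from −51 to −32 of the FCGR2A start, and 2 of the 35116 promoter windows in the RefSeq table held it. It contains TTCCTC, the reverse complement of GAGGAA, which was searched on both strands because ETS factors such as PU.1, encoded by SPI1, bind a GGAA core. GAGGAA was present in a window of 7 of the 10 members and in 23.6% of all windows of 250 bases. The AP-1-like TGANTCA was present in a window of 4 members, against 6.57% of all windows, and the C/EBP-like TTNCNNAA in a window of 8 members, against 33.2%. The motifs were chosen after the sequences had been seen, members with several windows have more chances of a match, and a match describes only the letters. The VCAN window held 12 CpG, and the other 18 member windows held 1 to 5. Over all windows the median was 11, with quartiles at 3 and 23. DNA methylation was not measured in these libraries.

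Values are normalised counts, in which 1 sequenced count was worth 0.407 to 0.961 units. Estimated depth was 14427331 to 32908419 counts per library. The members together summed to 4597 to 4726 normalised counts in the decitabine 120 h libraries, 3388 to 3869 in those of decitabine at 72 h, and 1110 to 1449 in all others. The decitabine 72 h libraries stood apart from each other, with a median absolute log2 difference of 0.59 over the tested genes against 0.19 to 0.26 in the other pairs. The row FP671120.7 took 3.89 to 10.9% of all normalised counts, and mitochondrial mRNA 0.662 to 0.812%, in the 120 h libraries of both treatments and in decitabine 72 h replicate 1. The same shares were 0.0424 to 0.794% and 0.238 to 0.415% in the other 6 libraries. The line's myeloid identity was visible in the DMSO 120 h libraries, with LYZ at 115256 ± 7995 and CD33 at 1030 ± 60.4 (SD, n = 2). The whole lymphoid marker list summed to 92.6 to 95.9 there, most of it NKG7 at 73.7 ± 0.242.

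Decitabine raised 5 of the 8 testable members by 120 h, and none fell. FCN1, CD14, FCGR2A, CD68 and LILRB2 were 3.73 to 5.01 times their DMSO level, whereas FCGR1A was 1.28 times and was not called. The calls of FCN1, FCGR2A and CD68 held in all 23 alternative fits. Those of CD14 and LILRB2 were lost in 5 and 10 of them. CD36 and VCAN had ratios of means of 4.97 and 6.39 and did not pass the test (adjusted p = 0.17 and 0.136), although both passed when the 120 h libraries were fitted alone (0.0209 and 0.0211). CD163 stayed at the detection limit. In limma, fitted to all libraries, 9.91% of the 16152 tested genes were called higher at 120 h and 6% lower, at an adjusted p under 0.05. The median log2 fold change of the 8 tested members was 2.14, beside 0.07 for all tested genes. Fold changes are on the log2(value + 1) scale, which understates those of low genes. In bulk RNA, a change in the number of cells that make a transcript and a change in the RNA of each cell cannot be told apart.

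**Figure D1:**
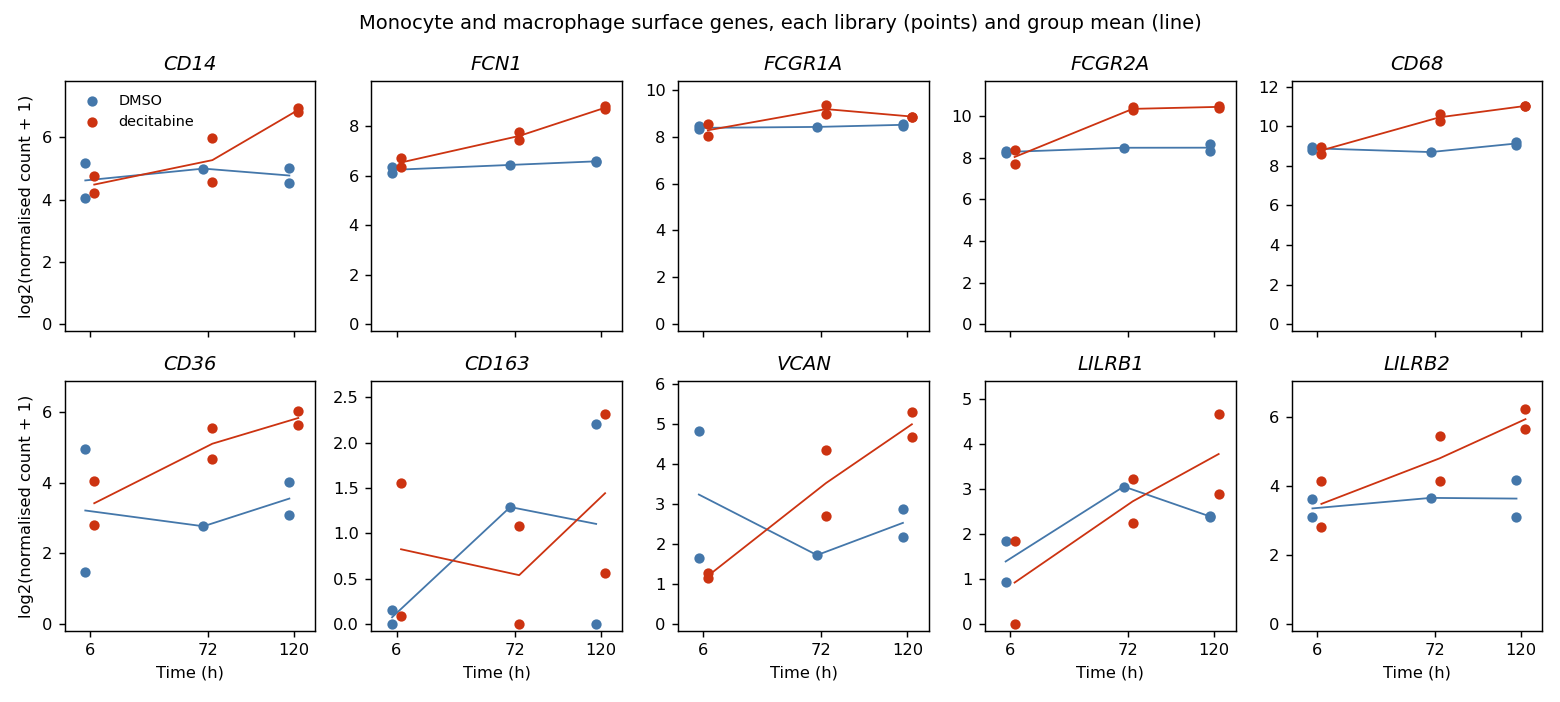
Each panel shows 1 gene, with log2(normalised count + 1) on the vertical axis and time in hours on the horizontal axis. Points are libraries and lines join group means. At 120 h both decitabine libraries lie above both DMSO libraries in every panel except CD163, and DMSO at 72 h has 1 point.

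CD14, on chromosome 5 (140631728 to 140633701, minus strand, hg38), was called higher at 120 h and not at 72 h. Its normalised counts were 112 and 123 in the decitabine 120 h libraries, against 31.4 and 22.2 under DMSO. At 72 h they were 61.5 and 22.9 under decitabine against 31.0 in the DMSO library, and at 6 h they were 17.6 and 25.9 against 15.6 and 35.4. Only at 120 h did both treated libraries clear the DMSO range of all times, which ran from 15.6 to 35.4. Its log2 fold change at 120 h was 2.11 (SE 0.53, limma adjusted p = 0.0306), and at 72 h it was 0.27 (SE 0.65, adjusted p = 0.857). The difference between these effects was 1.84 (95% interval −0.087 to 3.76, adjusted p = 0.766) and was not called, so a later rise than 72 h was not shown. The call at 120 h was lost when decitabine 120 h replicate 1 or 2, or DMSO 120 h replicate 1 or 2, was left out, with adjusted p from 0.0852 to 0.161, and when low genes were not filtered (adjusted p = 0.0826). From low to high the groups ran decitabine 6 h, DMSO 6 h, DMSO 120 h, DMSO 72 h, decitabine 72 h and decitabine 120 h, and only the last did not overlap its neighbour.

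FCN1, on chromosome 9 (134905890 to 134917963, minus strand), was called higher at 120 h, by a ratio of means close to that of CD14. At 120 h the decitabine libraries held 411 and 442 normalised counts and the DMSO libraries 92.6 and 96.1. At 72 h the values were 214 and 174 against 85.2, and at 6 h they were 103 and 81.4 against 79.7 and 68.7. The treated libraries lay above the DMSO libraries at each time. The log2 fold change was 2.16 at 120 h (SE 0.21, limma adjusted p = 0.000546), 1.17 at 72 h (SE 0.26, adjusted p = 0.0638) and 0.30 at 6 h (SE 0.21, adjusted p = 1). The 72 h difference was 1.02 without decitabine 72 h replicate 1 and 1.32 without replicate 2. It passed with all DMSO libraries as the control (limma adjusted p = 0.00205), where 2917 genes were called against 353 in the main fit. The effect at 120 h exceeded that at 6 h by 1.87 (adjusted p = 0.0124), a difference called in the higher direction for 3 members and for 4.27% of all tested genes. Without decitabine 120 h replicate 1 or 2, that count of members was 1. Treated cells at 120 h exceeded treated cells at 72 h by 1.14 (SE 0.21, adjusted p = 0.111), which was not called. In the order of levels, decitabine at 120 h and at 72 h held the top places without overlap, and DMSO 120 h overlapped decitabine 6 h.

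The partners of CD14 were examined in a list of 11 genes of the lipopolysaccharide receptor complex and its adaptors. At 120 h, 4 of the 11 tested were called higher and none lower, with a list median of 0.59. TLR4, the signalling receptor, rose from 779 ± 18.9 to 2395 ± 63.8 (SD, n = 2 in each group). LY96, which binds the lipid A part of lipopolysaccharide, rose from 2.80 ± 1.99 to 15.2 ± 3.94, a few counts per library under DMSO. The adaptor MYD88 rose from 163 ± 84.4 to 386 ± 61.8, and TLR2, which also uses CD14, from 497 ± 3.997 to 768 ± 6.48. None of the 11 was called at 72 h, where the list median was 0.22. TLR4 had 1591 ± 108 there under decitabine, against 884 in the lone DMSO library.

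FCGR2A, on chromosome 1 (161505430 to 161524013, plus strand), was called higher at both 72 and 120 h. The decitabine libraries held 1443 and 1366 normalised counts at 120 h and 1244 and 1387 at 72 h. The DMSO libraries held 321 and 401 at 120 h and 358 at 72 h. At 6 h the values were 205 and 337 under decitabine and 304 and 317 under DMSO, with overlap. The log2 fold change was 1.96 at 120 h (SE 0.24, limma adjusted p = 0.00144) and 1.87 at 72 h (SE 0.30, adjusted p = 0.0189). Between 72 and 120 h the treated libraries overlapped, and the difference was 0.10 (95% interval −0.46 to 0.65). The call at 72 h was lost without decitabine 120 h replicate 1 (adjusted p = 0.0565) or replicate 2 (0.0559), which help to set the spread shared by all groups, with sample weights (0.141), and with only the 72 h libraries fitted (0.804).

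FCGR1A, on chromosome 1 (149782671 to 149792518, plus strand), was already abundant under DMSO and moved least of the tested members at 120 h. Both decitabine libraries at 120 h held 465 normalised counts, and the DMSO libraries held 372 and 356. At 72 h the values were 661 and 509 under decitabine against 342 under DMSO, and at 6 h they were 369.7 and 259 against 348 and 317. The treated libraries lay above DMSO at 72 and 120 h without overlap, and those of 72 h lay above those of 120 h. None of these differences was called: the log2 fold change was 0.76 at 72 h (SE 0.26, limma adjusted p = 0.183) and 0.35 at 120 h (SE 0.22, adjusted p = 0.32, 95% interval −0.14 to 0.85). The 72 h difference was called (adjusted p = 0.0123) when all DMSO libraries served as the control. With that control, calls over all tested genes at 72 h rose from 353 to 2917.

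FCGR1A and FCGR2A share sequence with close copies, and reads of 50 bases can be assigned among copies only in part, so their levels are uncertain. FCGR1B, a copy of FCGR1A, had a mean of 159 ± 32.8 under DMSO and 355 ± 21.0 under decitabine at 120 h (SD, n = 2), and was called higher. FCGR1CP, a pseudogene copy, had 48.9 ± 15 and 50.8 ± 13.8. FCGR2B and FCGR2C, the copies of FCGR2A, rose from 3.33 ± 1.48 to 75.4 ± 48.5 and from 5.44 ± 0.880 to 121 ± 34.7. Of the 7 other Fc gamma receptor genes tested, 6 were called higher at 120 h, all except FCGR1CP, and none at 72 h. Their median log2 fold change at 72 h was 1.35, and they summed to 859 to 896 under decitabine against 393 in the lone DMSO library. FCGR3B rose from 43.3 ± 0.233 to 395 ± 49.5, FCGR3A, its close copy, from 18.0 ± 2.98 to 189 ± 30.7, and FCGRT, which recycles IgG inside cells, from 34 ± 7.39 to 262 ± 4.46.

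Downstream of Fc receptors, 4 of 10 signalling genes were called higher at 120 h, none was called lower, and none was called at 72 h. Among them, the SRC-family kinases FGR and LYN rose 6.09-fold and 1.81-fold as ratios of means, and SYK, which binds phosphorylated activating motifs, rose 1.52-fold. FCER1G, the chain that FCGR1A needs, had 890 ± 120 normalised counts under decitabine against 235 ± 21.7 under DMSO (SD, n = 2) and did not pass (limma adjusted p = 0.0618). Its decitabine 72 h value was 359 ± 338.

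**Figure D2:**
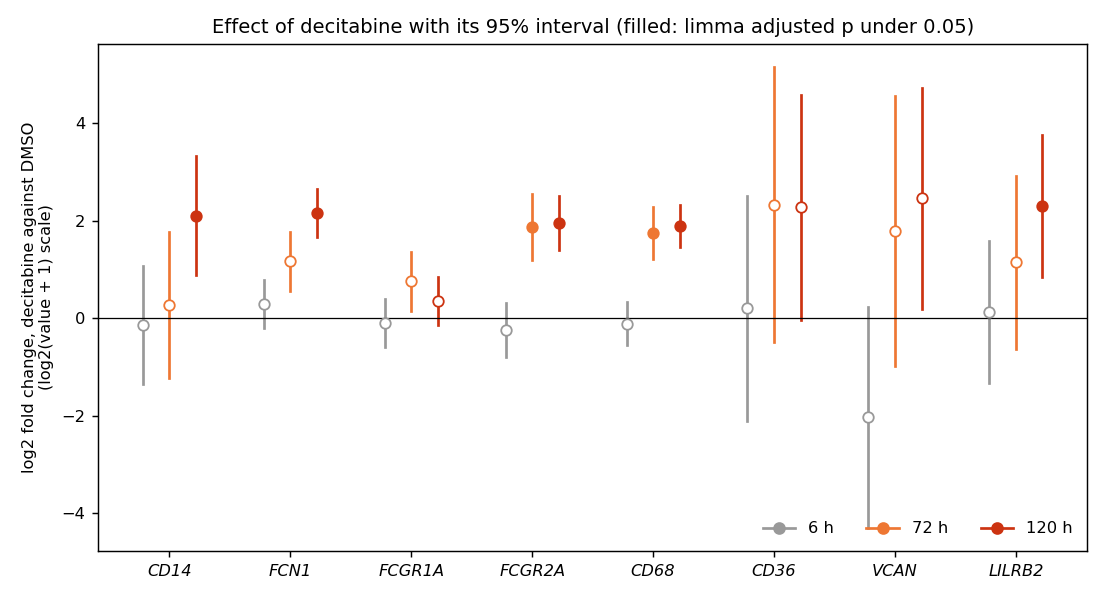
The vertical axis gives the log2 fold change of decitabine against DMSO on the log2(value + 1) scale for the 8 tested members, in grey for 6 h, orange for 72 h and red for 120 h. Lines are 95% intervals from limma and filled circles mark an adjusted p under 0.05: CD14, FCN1, FCGR2A, CD68 and LILRB2 at 120 h, and FCGR2A and CD68 at 72 h.

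CD68, on chromosome 17 (7579467 to 7582113, plus strand), had the most RNA per length of the 10 members in every group. Its product is a heavily glycosylated relative of the lysosomal LAMP proteins. The decitabine libraries held 2107 and 2053 normalised counts at 120 h and 1591 and 1225 at 72 h. The DMSO libraries held 579 and 537 at 120 h and 412 at 72 h, and the 6 h values were 387 and 495 under decitabine and 496 and 447 under DMSO. All 4 late treated libraries lay above the DMSO range of 412 to 579. In limma the log2 fold change was 1.90 at 120 h (SE 0.19, adjusted p = 0.000569) and 1.76 at 72 h (SE 0.23, adjusted p = 0.0097). With only the 72 h libraries fitted, the 72 h call was lost (adjusted p = 0.935). Compared with the effect at 6 h, the effect was larger by 1.86 at 72 h (adjusted p = 0.0397, called for this member alone and higher for 0.557% of tested genes) and by 2.00 at 120 h (adjusted p = 0.00595). The transcript AC016876.2 overlaps CD68 on the same strand, so reads could not be split between them with certainty.

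CD36, a class B scavenger receptor for oxidised lipoproteins and fatty acids on chromosome 7 (80369575 to 80679277, plus strand), was low and scattered. Its normalised counts were 64.2 and 49.0 under decitabine and 7.48 and 15.3 under DMSO at 120 h. At 72 h they were 45.4 and 24.6 against 5.82, and at 6 h 5.96 and 15.5 against 1.78 and 30.1. The late treated libraries were above DMSO of the same time, but DMSO 6 h replicate 2, at 30.1, lay above 1 of the 4. These gave log2 fold changes of 2.28 at 120 h (SE 1.01, limma adjusted p = 0.17) and 2.34 at 72 h (SE 1.23, adjusted p = 0.356). CD36 passed at 120 h without DMSO 6 h replicate 1 (adjusted p = 0.0412) or replicate 2 (0.0442), whose mutual distance enters the shared spread. Fitted to the 120 h libraries alone, it had an adjusted p of 0.0209, and with all DMSO libraries as the control 0.0294.

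CD163, on chromosome 12 (7470813 to 7503893, minus strand), was at or near the detection limit in every group and entered no test. Decitabine libraries held 0.481 and 3.99 normalised counts at 120 h, 0 and 1.11 at 72 h, and 1.94 and 0.0677 at 6 h. DMSO libraries held 0 and 3.62 at 120 h, 1.45 at 72 h, and 0 and 0.111 at 6 h. A total of 3 counts would be worth 1.22 to 2.88 units, and only 1 library of each 120 h group exceeded that range. Every neighbouring pair of groups overlapped, and a difference was not detectable at this depth.

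Among the other scavenger and mannose receptors, 3 of 9 tested genes were called higher at 120 h and 1 lower. CLEC7A, the beta-glucan receptor Dectin-1, rose from 28.2 ± 1.85 to 320 ± 39.4 (SD, n = 2), and STAB1 went from 2.40 ± 3.39, near the limit, to 144 ± 20.4. OLR1, a receptor for oxidised LDL, rose from 14.5 ± 4.87 to 42.2 ± 1.56. SCARB1, the HDL receptor and a relative of CD36, fell from 466 ± 85.2 to 172 ± 4.92. The macrophage receptor MRC1 was listed at 0 in both decitabine 72 h and both decitabine 120 h libraries. It was also at 0 in the DMSO 6 and 72 h libraries, and its highest group mean was 0.399, in DMSO at 120 h.

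Of the genes of haptoglobin and haem handling listed with CD163, 4 of 7 were called higher at 120 h and none lower. HP, which encodes haptoglobin, part of the CD163 ligand, rose from 525 ± 8.49 to 4948 ± 674 normalised counts (SD, n = 2). HMOX1, which opens the haem ring, went from 0.295 ± 0.417 to 33.7 ± 4.29, BLVRA, which reduces biliverdin, from 74.2 ± 14.4 to 196 ± 3.33, and the iron exporter gene SLC40A1 from 48.3 ± 19.4 to 183 ± 5.28. HP and SLC40A1 were the 2 called at 72 h. The lipid genes considered with CD36 were split, with 3 of 6 called higher and 2 lower. PLIN2, which coats lipid droplets, rose 4.35-fold and the nuclear receptor gene PPARG 3.63-fold, while LPL fell from 931 ± 116 to 338 ± 26.9 and FABP5 from 4214 ± 77.0 to 1181 ± 41.0.

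VCAN, on chromosome 5 (83471465 to 83582303, plus strand), encodes versican, a large chondroitin sulphate proteoglycan that monocytes secrete. The decitabine libraries held 24.5 and 38.7 normalised counts at 120 h, against 3.54 and 6.33 under DMSO. At 72 h the values were 5.45 and 19.5 against 2.30, and at 6 h they were 1.41 and 1.204 against 2.13 and 27.3. DMSO 6 h replicate 2, at 27.3, lay within the range of the decitabine 120 h libraries. It was also the highest of the 5 DMSO libraries for CD14 and CD36. The log2 fold change of VCAN was 2.46 at 120 h (SE 0.99, limma adjusted p = 0.136), 1.80 at 72 h (SE 1.21, adjusted p = 0.47) and −2.03 at 6 h (SE 0.99, adjusted p = 1). The 6 h value was −0.44 without DMSO 6 h replicate 2 and −3.62 without DMSO 6 h replicate 1. At 120 h VCAN passed without DMSO 6 h replicate 1 (adjusted p = 0.0491) or when fitted to the 120 h libraries alone (0.0211).

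Of the partners and proteases of versican, 7 of 13 were tested, of which 3 were called higher at 120 h and none lower. Among them, TNFAIP6, whose product binds hyaluronan, rose 7.92-fold and the hyaluronan receptor gene CD44 2.10-fold. The link protein genes HAPLN1 and HAPLN3 and the hyaluronan synthase gene HAS1 were listed at 0 in all 11 libraries.

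LILRB2, on chromosome 19 (54273821 to 54281184, minus strand), was called higher at 120 h, with a larger standard error than CD68 or FCN1. Its normalised counts at 120 h were 74.9 and 49.5 under decitabine and 17.2 and 7.61 under DMSO. They were 43.2 and 16.9 against 11.7 at 72 h, and 16.9 and 6.08 against 7.58 and 11.3 at 6 h. Both 120 h treated libraries lay above every other library. The log2 fold change was 2.31 at 120 h (SE 0.64, limma adjusted p = 0.0422) and 1.15 at 72 h (SE 0.78, adjusted p = 0.472), and the difference between the effects, 1.16 (95% interval −1.14 to 3.46, adjusted p = 0.788), was not called. The call at 120 h was lost in 10 of 23 alternatives, with adjusted p from 0.0518 to 0.226, including those without either replicate of decitabine 120 h, DMSO 120 h or DMSO 6 h.

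LILRB1, on chromosome 19 (54617158 to 54637528, plus strand), stayed under the filter of 10 normalised counts in at least 2 libraries. It held 24.5 and 6.36 under decitabine and 4.24 and 4.27 under DMSO at 120 h, 3.71 and 8.28 against 7.30 at 72 h, and 2.59 and 0 against 2.57 and 0.927 at 6 h. Its high value rests on decitabine 120 h replicate 1. With no filter, its log2 fold change at 120 h was 1.38 (limma adjusted p = 0.43). LILR genes are close relatives in a cluster, so that reads may be shared between them.

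Of the other LILR genes and paired receptors, 7 of 13 tested were called higher at 120 h and none lower. PILRA rose from 67.0 ± 7.86 to 572 ± 6.20 and CD300A from 193 ± 74.0 to 893 ± 58.2 normalised counts (SD, n = 2), both genes of inhibitory receptors. LILRB3, an inhibitory relative, rose from 10.3 ± 5.92 to 89.1 ± 13.9, and LILRA5, an activating relative, from 6.10 ± 0.140 to 42.1 ± 5.51. LILRB4 did not pass, with 37.6 ± 6.63 and 26.5 ± 22.8. On the ligand side, 5 of 8 MHC class I and phosphatase genes were called higher and none lower. Among them, HLA-E rose 3.48-fold, HLA-C 2.84-fold and HLA-B 2.63-fold. HLA class I genes are also close relatives, with the same limit on assigning reads.

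**Figure D3:**
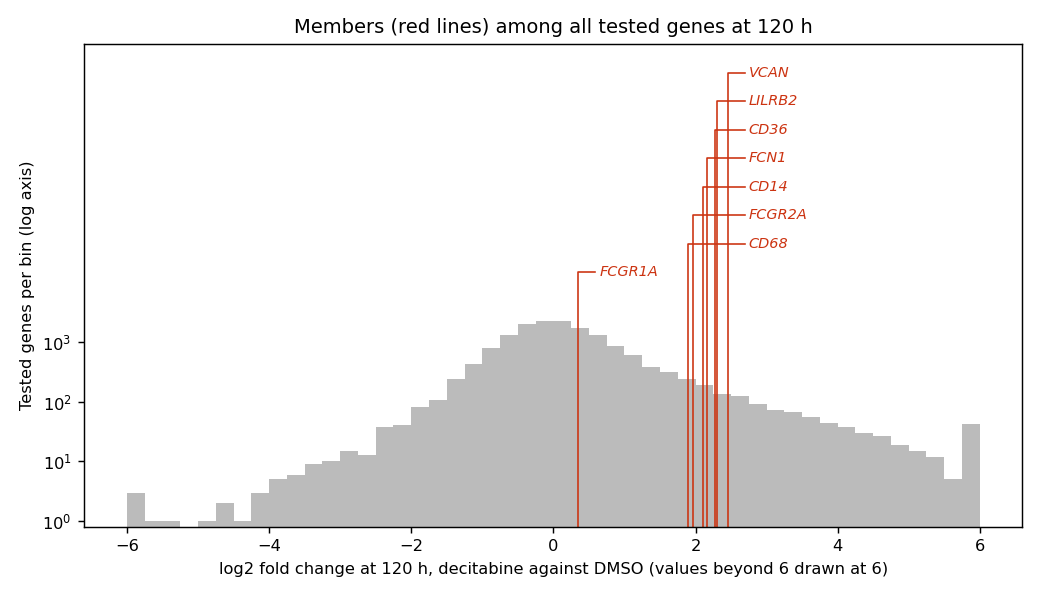
Grey bars count the 16152 tested genes by log2 fold change at 120 h (log vertical axis, bins of equal width, values beyond 6 drawn at 6), and red lines mark the 8 tested members. FCGR1A lies at 0.35 and the other 7 between 1.90 and 2.46.

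No member had an effect of decitabine that was called different between 72 and 120 h (limma adjusted p from 0.69 to 0.992), and neither had any of the tested genes (0%). At 6 h no member was called, and neither was any of the 16152 genes (0%). In that comparison 541 genes had an unadjusted limma p under 0.05, of which 0 were members. At 72 h, FCGR2A and CD68 were called higher, against 1.88% of all tested genes. The median member value at 72 h was 1.46, beside 0.09 for all tested genes. All 4 treated libraries of 72 and 120 h exceeded all 5 DMSO libraries for FCN1, FCGR1A, FCGR2A and CD68, 4 of the 10 members, beside 14.1% of tested genes. Relative to all tested genes at 120 h, 64.9% had a smaller log2 fold change than FCGR1A, and 93.4 to 95.9% a smaller one than the other tested members.

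Leaving tests aside, at 120 h both treated libraries lay above both DMSO libraries for all 8 tested members, beside 36.1% of tested genes. LILRB1, which was under the filter, also had both treated libraries above DMSO. The same held for 7 members at 72 h, beside 37.5% of tested genes and against a lone DMSO library, and for FCN1 alone at 6 h, beside 18.2%. Members below DMSO without overlap were CD163 at 72 h, beside 27.6% of tested genes, and VCAN at 6 h, beside 20.8%. CD163 was untested and near the detection limit, so the 27.6% is not a like comparison for it. From 72 to 120 h in treated cells, 6 members were higher without overlap (CD14, FCN1, CD36, CD68, VCAN and LILRB2), beside 23.3% of tested genes, and FCGR1A was lower, beside 21.4%. None of these 72 to 120 h differences was called, where 0.13% of genes were. There, 2656 genes and 3 members (CD14, FCN1 and CD68) had an unadjusted limma p under 0.05. With decitabine 72 h replicate 1 left out, 3 members were called higher, but so were 2483 genes, with 2709 lower, against 21 called genes with it. Between the decitabine 72 h replicates, the SD was 79.6% of the mean for VCAN, 64.8% for CD14, 61.9% for LILRB2, 53.9% for LILRB1 and 42.2% for CD36, and 7.69 to 18.4% for FCN1, FCGR1A, FCGR2A and CD68. VCAN, LILRB1 and FCGR2A were higher in replicate 2. CD14, LILRB2, CD36, FCN1, FCGR1A and CD68 were higher in replicate 1, the library with the FP671120.7 and mitochondrial shares of the 120 h libraries. With both left out of the totals and the totals made equal, 2 members were called at 72 h and 4 at 120 h. In the main fit 5 were called at 120 h, and LILRB2 was the one lost (limma adjusted p = 0.0518). Such scaling changes only a factor per library, and the part of those shares in the result was not tested.

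No member was called between DMSO libraries of different times. DMSO libraries at 120 h against 6 h gave log2 differences from −0.71 (VCAN) to 0.35, and no member and no gene was called (0%). The difference was positive for 7 of the 8 tested members, beside 48.3% of tested genes. In that comparison 865 genes and 0 members had an unadjusted limma p under 0.05. The same counts for DMSO at 72 h against 6 h were 456 genes and 0 members. There 5 of the 8 tested members had a positive difference, beside 46.9% of tested genes.

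Levels can be compared between genes only per length. Per kilobase of exon in GENCODE 29, decitabine at 120 h gave CD68 950 normalised counts, FCGR2A 264, FCGR1A 155, FCN1 85.7, CD14 62.3 and LILRB2 16.3. CD36 (5.20), LILRB1 (3.08), VCAN (2.13) and CD163 (0.385) followed on the same scale. Under DMSO at 120 h the order began with CD68 (255), FCGR1A (121), FCGR2A (68.0), FCN1 (18.9) and CD14 (14.2), so that FCGR1A and FCGR2A changed places. The exon length joins all annotated transcripts and does not weigh which were used.

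Over the 11 libraries, the 8 tested members were correlated with each other at Pearson r from 0.44 (FCGR1A with VCAN) to 0.96 (FCGR2A with CD68), on the log2(value + 1) scale. The libraries share treatment groups, so these values describe a common pattern and are not independent evidence. The genes most like each called member by the same measure were FBP1 (r = 0.968) and CPEB2 (0.965) for CD14, MBOAT1 (0.991) and COL17A1 (0.990) for FCN1, and RAB13 (0.989) and ANKRD13A (0.989) for FCGR2A. They were IL17RA (0.991) and Z83745.1 (0.991) for CD68, and GALC (0.969) and CCDC71L (0.967) for LILRB2.

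Genes of monocyte identity outside the members went in both directions. Among 16 tested monocyte and macrophage genes, 8 were called higher and 3 lower at 120 h. MPEG1, a pore-forming protein of phagosomes, rose from 69.0 ± 10.6 to 627 ± 26.1 normalised counts (SD, n = 2), CTSS, a lysosomal protease, from 1099 ± 53.0 to 3501 ± 118, and TYROBP, an adaptor of activating receptors, from 486 ± 39.7 to 1535 ± 49.2. CCR2, the receptor that draws classical monocytes from marrow, fell from 181 ± 17.6 to 25.8 ± 4.05, and MS4A6A and MS4A7 were the other genes that fell. The macrophage genes C1QA and C1QB were listed at 0 in both decitabine 120 h libraries. C1QB was at 0 in all other groups too, and C1QA had at most 0.586, in the DMSO 72 h library.

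Among 14 tested transcription factor genes of monocytes, 4 were called higher and 2 lower. IRF8, a factor needed for monocyte formation, fell from 1019 ± 15.6 to 184 ± 10.8, and TFEC from 1358 ± 29.99 to 545 ± 90.0 (SD, n = 2). EGR2 went from 0.278 ± 0.393 to 27.6 ± 3.29, from under the worth of 3 counts. SPI1, which encodes PU.1, had 606 ± 15.7 and 638 ± 2.36 and was not called.

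**Figure D4:**
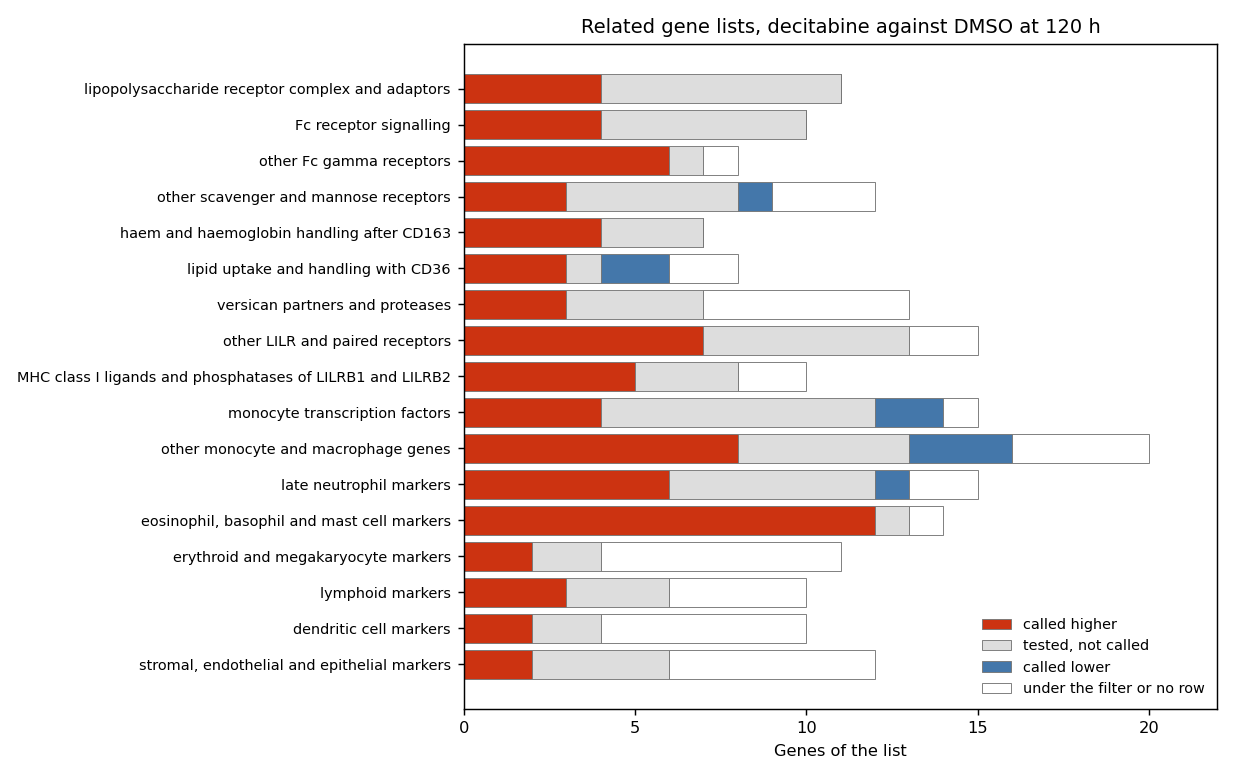
Each bar is a gene list, its length the number of genes, split into called higher (red), tested and not called (grey), called lower (blue) and under the filter or without a row (white) for decitabine against DMSO at 120 h in limma. The eosinophil, basophil and mast cell list has 12 of 13 tested genes called higher, and the list of other monocyte and macrophage genes 8 higher and 3 lower of 16.

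Markers of other cell types rose in the same libraries as the members. Of the eosinophil, basophil and mast cell markers, 12 of 13 tested were called higher at 120 h, and the list summed to 123846 to 134270 normalised counts under decitabine at 120 h. Its sum was 74214 to 86051 under decitabine at 72 h, 23798 to 25276 at 6 h, and 14733 to 22956 in the DMSO libraries. EPX rose from 87.8 ± 6.71 to 5637 ± 78.5, CLC from 19.6 ± 3.86 to 2219 ± 161, PRG2 from 13955 ± 730 to 113252 ± 7298, and PRG3 from 5.21 ± 1.73 to 446 ± 2.93 (SD, n = 2), all genes of eosinophil granules or crystals. TPSAB1, a mast cell tryptase gene, was at 0 in the DMSO libraries and in those of decitabine at 6 and 72 h. It had 0.795 ± 1.12 under decitabine at 120 h and was under the filter.

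Late neutrophil markers had 6 of 13 tested genes called higher at 120 h and 1 lower. Their sum was 6316 to 6406 under decitabine at 120 h, 3003 to 3029 at 72 h, 1366 to 1398 at 6 h, and 1345 to 1624 in the DMSO libraries. S100A12, also a monocyte gene, rose 7.61-fold, FPR1 9.70-fold and FCGR3B 9.12-fold, and MMP9 went from 1.61 ± 2.28 to 225 ± 2.82. ALPL, a marker of mature neutrophils, was at 0 in all 11 libraries, and OLFM4 was at 0 in the DMSO 6 and 120 h libraries.

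Lists of more distant types held few tested genes. Genes under the filter value in all DMSO libraries, such as GATA1, GNLY, CD3D, CLEC9A and LUM, were tested only because of the decitabine libraries. The shares of tested genes called higher were therefore set in part by the filter. Erythroid and megakaryocyte genes had 2 of 4 tested called higher and summed to 514 to 538 at 120 h under decitabine, 124 to 154 at 72 h, 68.1 to 90.9 at 6 h and 52.1 to 92.4 under DMSO, with HBA1, HBB and PF4 at 0 in all libraries. The lymphoid list had 3 of 6 called higher, with sums of 799 to 823, 241 to 557, 78.1 to 83.2 and 75.4 to 130 in the same order. Those called were GNLY, which went from 1.58 ± 0.108 to 378 ± 35.4 (SD, n = 2), CD3D, from 0.293 ± 0.415 to 125 ± 23.8, and NKG7, from 73.7 ± 0.242 to 261 ± 27.2. MS4A1 was at 0 in the decitabine 6 and 72 h and the DMSO 72 and 120 h libraries. Its highest group mean was 0.821, under decitabine at 120 h. CD3E was at 0 in all 5 DMSO libraries. Dendritic cell genes had 2 of 4 called higher, with sums of 766 to 777, 935 to 945, 731 to 834 and 706 to 804. For stromal, endothelial and epithelial genes, 2 of 6 were called higher and the sums were 2047 to 2162, 1178 to 1927, 651 to 688 and 469 to 694, with COL3A1 at 0 throughout. Most of each sum was PECAM1, with 475 ± 37.6 under DMSO and 1840 ± 50.7 under decitabine at 120 h. The other called gene, LUM, went from 1.33 ± 1.89 to 220 ± 20.1. The sums of the eosinophil, neutrophil, erythroid, lymphoid and stromal lists were higher in the late treated libraries than in every DMSO library, as were those of the members. The dendritic sum at 120 h lay within the DMSO range. The part of these lists in the members' result was not tested.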

How the data were processed

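The values are a normalised signal that the authors deposited as 1 table of 60240 genes by Ensembl identifier and symbol. Per the submitters' processing notes, hg38, Salmon 1.2.1, STAR, featureCounts, DESeq2 and limma were used, with no role or order given. No source used here names the annotation release. The values look like estimated counts scaled by a factor per library. Since too few values were whole multiples of 1 count to recover reads, a count model was not fitted. Strand use in counting is not stated, so overlapping and antisense genes cannot be told apart with certainty.

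Per the file headers, 12 libraries are named over 11 value columns. The names were read as starting at the symbol column, so that DMSO 72 h replicate 2 was not analysed here. No per-sample column was left unused. All results rest on this reading.

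Values were taken as log2(value + 1), and 16152 genes at 10 or more in at least 2 libraries were tested. A gene low in all DMSO libraries could pass this filter only through decitabine libraries, which favours calls in the higher direction in any list. A linear model with 6 group means was fitted to 11 libraries in limma 3.58.1 (lmFit, eBayes with trend, R 4.3.3), with 5 residual degrees of freedom and 8.42 in total. The lone DMSO 72 h library was taken to vary as the other groups did. Two-sided p-values were adjusted by Benjamini-Hochberg over all tested genes, with calls at 0.05. The fit was tested on simulated data. Exon lengths and positions came from GENCODE 29, promoters from RefSeq, and plots from matplotlib 3.10.9.

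The members and the 17 further lists were chosen with earlier results of these data known. Named genes were all members, up to 4 called genes of each list with the smallest adjusted p at 120 h, and the 2 genes most correlated with each called member. MS4A6A, MS4A7, FCGR1B, FCGR1CP, FCGR2B, FCER1G, LILRB4, SPI1 and the genes named at 0 were added to give levels, after their values were seen. Alternatives were other pseudocounts, filters, scalings, model settings and controls, a replicate block, and leaving out each library. Some genes of the fixed lists are counted in the list totals but are not reported here by name.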

Additional observations from a re-analysis of the deposited data

Results flagged for a closer look

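A few effects of decitabine differed between times when the difference itself was tested in limma. For CD68 the effect at 72 h exceeded that at 6 h by 1.86 on the log2 scale (adjusted p = 0.0397), and the effect at 120 h exceeded that at 6 h by 2.00 (adjusted p = 0.00595). Called genes in the higher direction were 0.557% of those tested for 72 h minus 6 h and 4.27% for 120 h minus 6 h. For FCGR2A the effect at 120 h exceeded that at 6 h by 2.20 (adjusted p = 0.0101), and for FCN1 by 1.87 (adjusted p = 0.0124). In each of these the treated libraries of the later time lay above every DMSO library. FCGR2A also had a difference of 2.11 between 72 h and 6 h, which missed the threshold (adjusted p = 0.064). Without decitabine 120 h replicate 1 or 2, 1 member in place of 3 was called for 120 h minus 6 h. The comparisons share the 6 h libraries.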

How the results depend on the processing

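At 120 h, FCN1, FCGR2A and CD68 were called in all 23 alternatives. The count of members called there was 5, with 3 to 6 when a library was left out, 3 with no filter on low values and 7 when only the 120 h libraries were fitted. At 72 h the count was 2, with 1 to 3 when a library was left out, 1 with sample weights, 0 with only the libraries of that comparison, and 4 with all DMSO libraries as the control. With that control, 2917 genes were called at 72 h, against 353 in the main fit. For the effect at 72 h minus 6 h the count of members was 1. It was 0 with no filter, quantile normalisation, equal totals, median-ratio rescaling, no trend, sample weights, the replicate block or only its own libraries, and 0 to 2 when a library was left out. For 120 h minus 6 h it was 3, with 1 to 4 when a library was left out and 5 with sample weights. For 120 h minus 72 h it was 0, with 0 to 2, and for treated cells at 120 against 72 h it was 0, with 0 to 3, where the highest values came without decitabine 72 h replicate 1. The cause was not tested. Calls over all genes moved too. With settings other than leaving 1 library out, they ran from 2271 to 5031 at 120 h, against 2570 in the main fit. For 120 h minus 6 h they ran from 589 to 3021, the latter with sample weights, against 953. For 72 h minus 6 h they ran from 1 to 128, against 99. How far the member counts follow these was not tested.

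At 6 h, where nothing was called, signs turned when a library was left out. The log2 fold changes then ran from −0.70 to 0.43 for CD14, −0.36 to 0.15 for FCGR1A, −0.60 to 0.12 for FCGR2A, −1.54 to 1.95 for CD36, −0.28 to 0.070 for CD68 and −0.54 to 0.80 for LILRB2, and with a pseudocount of 5 CD36 was at −0.041. Each turned without a library of its own 6 h comparison. At 72 h CD14 ran from −0.42, without decitabine 72 h replicate 1, to 0.97.

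Deviations of same-numbered replicates were little correlated, with r from −0.08 to 0.12 over 10 pairs of groups. Such values cannot show whether the numbers mark paired samples, and the main fit used no pairing. With a replicate block, 2 members were called at 72 h, 5 at 120 h and 3 for 120 h minus 6 h. Over all genes, calls at 120 h numbered 2570, with 789 to 4940 when a library was left out and up to 5031 with sample weights. Of them 62.3% were higher, against 50.8 to 76.6% over the alternatives. At 72 h they numbered 353, with 137 to 4756 and, with other settings, 0 to 2917. Scaling moved the median of all genes by at most 0.215 (equal totals). Depth limits CD163, at a few counts per library, and LILRB1, which reached 10 normalised counts in only 1 library. DMSO 72 h replicate 1 could not be left out at 72 h.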
